A study of Homo sapiens with 6 samples.

Results

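The cytosolic ribosomal protein genes were followed in RNA of the triple-negative breast cancer line MDA-MB-231. Members were the genes whose symbol is RPL or RPS followed by a number, with an optional letter, L or X after it, together with RPLP0, RPLP1, RPLP2 and RPSA. Of the 17064 genes in the table, 81 met this rule, of which 32 encode small-subunit and 49 large-subunit proteins. Left out were 3 readthrough genes and 10 RPS6K kinase genes, and no pseudogene was listed under such a symbol. FAU, which encodes a ribosomal protein fused to a ubiquitin-like protein, and RACK1, a scaffold protein of the small subunit, fell outside the rule by name. RPL7L1, RPL22L1 and RPL26L1, relatives of members, fell outside it as well.

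The libraries were 2 of vector control cells, which carried the empty lentiviral vector from separate transductions, 1 of MRCKα KO cells (CDC42BPA Knockout), 1 of MRCKβ KO cells (CDC42BPB Knockout) and 2 of DKO cells (CDC42BPA/CDC42BPB Double Knockout) made with different sets of guides. All cells were drug-selected after lentiviral transduction, and the knockout cells were CRISPR-edited populations from which no clone was picked. MRCKα and MRCKβ are kinases that bind the small GTPase CDC42 and act on actomyosin contraction. The expected counts, estimated reads per gene, summed to between 10349898 and 10657857 per library. A single knockout has 1 library and therefore no replicate check and no p-value, and the spread between 2 libraries of a group may be technical. Levels below are FPKM, reads scaled by transcript length and library total, and differences between libraries are log2 ratios of counts scaled to a common total by the TMM method (TMM CPM). Where a group has 2 libraries, library 1 is given before library 2.

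CDC42BPA, the gene targeted in MRCKα KO, was at 36.4 and 23.3 FPKM in vector, 28.3 and 26.1 in DKO, 29.4 in MRCKα KO and 34.9 in MRCKβ KO. CDC42BPB, the gene targeted in MRCKβ KO, was at 30.3 and 29.1 FPKM in vector, 23.4 and 23.5 in DKO, 27.3 in MRCKα KO and 25.7 in MRCKβ KO. CDC42BPA in MRCKα KO and in both DKO libraries lay between the vector libraries, and CDC42BPB was below both vector libraries in all 4 knockout libraries, MRCKα KO included, where it was not targeted. A small insertion or deletion can leave the transcript in place, so these RNA levels do not check the labels, and protein was not part of these files.

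The ribosome is built from ribosomal RNA and the proteins encoded by these genes, most of which are needed in equal amounts, and proliferating cells devote a large part of their messenger RNA to them. Most of their messenger RNAs begin with a C followed by a run of pyrimidines, the terminal oligopyrimidine or TOP element, through which mTOR signalling and the protein LARP1 adjust their translation and stability. Several members have further roles, such as RPL5 and RPL11, which bind the p53 regulator MDM2 when ribosome assembly is disturbed.

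RefSeq start sites (GRCh38.p14) were at hand for 64 of the 81 members. In 46 of these 64 genes (71.9%), the base at the start was C and the next 4 bases were each C or T, against 1404 of 27305 genes (5.14%) in the same collection. Only the strand of the gene was searched, and a gene with several listed starts was counted by the start nearest to a match. The 30 bases from 10 before the start are shown for RPLP0, the member with the highest level, for the 3 members that differed most between the vector libraries (RPSA, RPL14 and RPL38), and for members at either end of the comparison of DKO with vector, with the matching 5 bases in capitals where they begin within 5 bases of the start.
RPLP0: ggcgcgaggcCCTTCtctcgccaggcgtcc
RPSA: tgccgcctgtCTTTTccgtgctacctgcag
RPL14: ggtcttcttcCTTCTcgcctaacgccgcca
RPL38: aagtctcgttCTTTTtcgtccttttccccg
RPL31: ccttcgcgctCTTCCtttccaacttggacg
RPS28: gaagcacgtgaCTCCTctccgccagaccgc
RPL7A: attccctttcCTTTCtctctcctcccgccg
RPL11: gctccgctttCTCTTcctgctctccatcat
RPL9: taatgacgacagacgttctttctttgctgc

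These windows lie at chr12:120201092-120201121 on the minus strand for RPLP0, chr3:39406710-39406739 for RPSA, chr3:40457329-40457358 for RPL14, chr17:74203668-74203697 for RPL38, chr2:101002279-101002308 for RPL31, chr19:8321486-8321515 for RPS28, chr9:133348208-133348237 for RPL7A and chr1:23691796-23691825 for RPL11, all on the plus strand. The window of RPL9 lies at chr4:39458903-39458932 on the minus strand. Each window spans the promoter and the first 20 bases of the transcript. The match begins at the annotated start in 7 of the 9 genes, 1 base after it in RPS28, and was not found within 5 bases of the start listed for RPL9.

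Ribosomal protein genes were among the most abundant transcripts of the line. The median level of the 81 members was 648 FPKM over the vector libraries, against 5.75 FPKM for all genes of the table, and 53 of the 100 genes with the highest vector mean were members. At least 100 counts in every library were reached by 80 members, and the same 80 passed the filter on low counts. RPL3L, a relative of RPL3 known from striated muscle, had 0 counts in 5 libraries, which allows up to 3 counts in each, and 1 count in DKO 2. The mean vector level was above 1000 FPKM for 17 members and below 100 FPKM for 3, which were RPL3L, RPL39L and RPS27L.

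RPLP0, the scaffold of the stalk that recruits translation factors, had the highest level, with 1527 and 1579 FPKM in vector, 1566 and 1653 in DKO, 1519 in MRCKα KO and 1598 in MRCKβ KO. RPS2, a small-subunit protein near the entry of the messenger RNA, followed with 1226 and 1614 FPKM in vector, 1336 and 1538 in DKO, 1327 in MRCKα KO and 1181 in MRCKβ KO. RPLP0 was nearly level over the 6 libraries, whereas RPS2 spanned a wider range with vector 2 at its top. The log2 fold change in DKO was 0.03 for RPLP0 (SE 0.12, edgeR adjusted p = 1.00) and -0.00 for RPS2 (SE 0.17, edgeR adjusted p = 1.00). RPS24, a small-subunit protein, had 1149 and 1430.0 FPKM in vector, 1123 and 1191 in DKO, 1413 in MRCKα KO and 1263 in MRCKβ KO. RPL6, of the large subunit, had 1298 and 1242 FPKM in vector, 1303 and 1302 in DKO, 1324 in MRCKα KO and 1220.1 in MRCKβ KO. Vector 2 was the highest library for RPS24 and MRCKβ KO the lowest for RPL6, whose libraries lay close together. RPL26, at the tunnel exit, had 1135 and 1349.8 FPKM in vector, 1161 and 1358 in DKO, 1423 in MRCKα KO and 1227 in MRCKβ KO. RPL27 had 1134 and 1333 FPKM in vector, 1228 and 1242 in DKO, 1394 in MRCKα KO and 1218 in MRCKβ KO, and RPL35 had 1122 and 1221 FPKM in vector, 1127 and 1225 in DKO, 1182 in MRCKα KO and 1076 in MRCKβ KO. MRCKα KO was the highest library for RPL26 and RPL27 and MRCKβ KO the lowest for RPL35, and in all 3 the vector and DKO libraries overlapped.

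**Figure D1:**
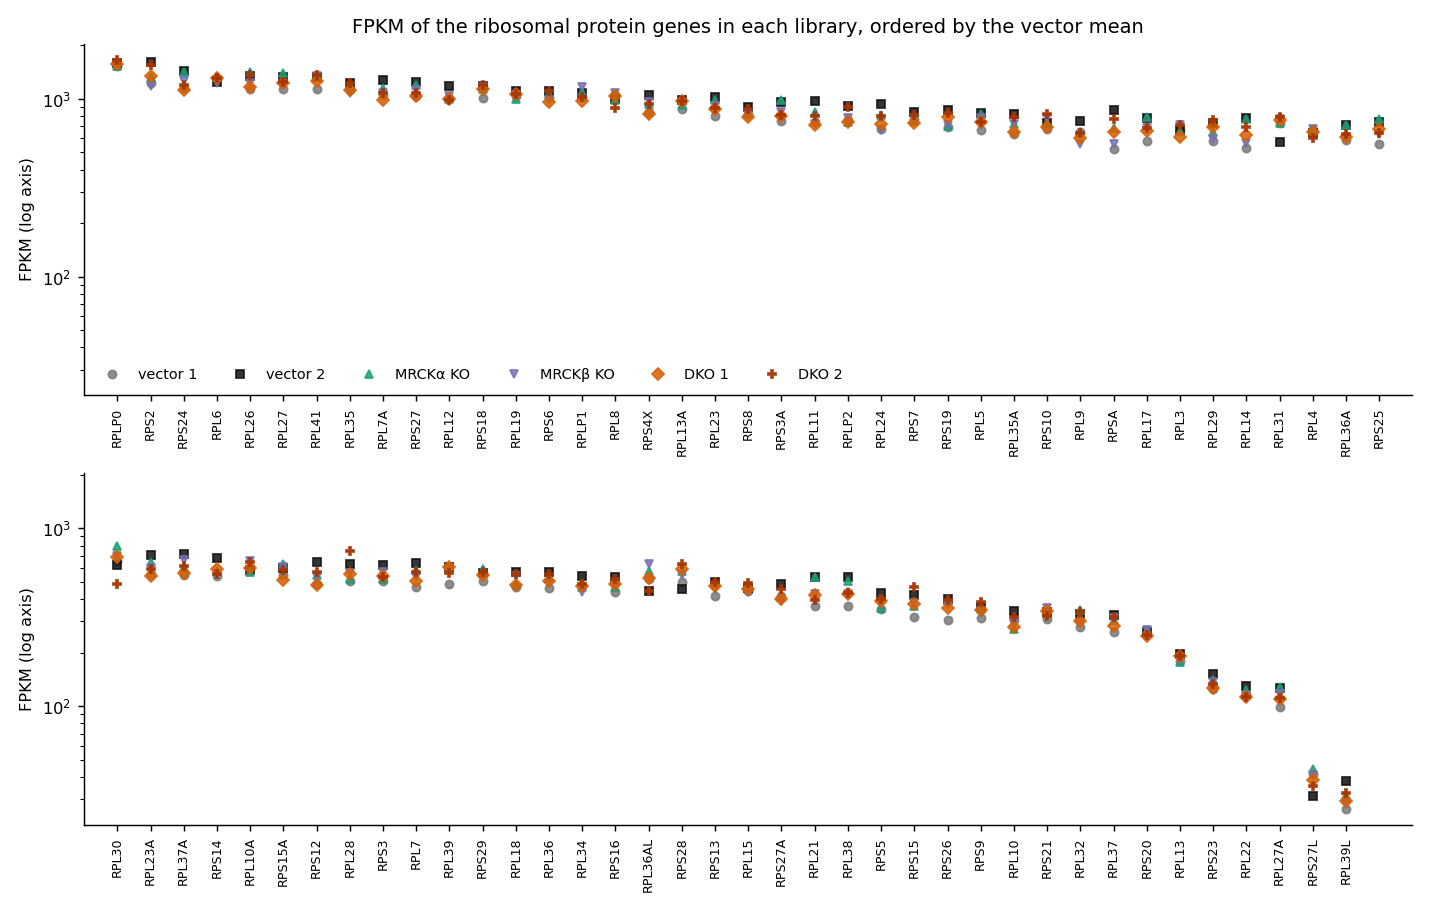
FPKM on a log axis of 77 of the 80 ribosomal protein genes with counts in every library, ordered by their mean over the vector libraries and split over 2 rows, with a symbol for each library. The 3 members not drawn were not chosen by level or by change. The spread between the 6 libraries of a gene is small beside the range over genes, from RPLP0 (1519 to 1653 FPKM) to RPL39L (26.5 to 37.9 FPKM).

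FPKM divides by transcript length, and the length used for some members was long. The median length of the members was 735 bases, against 3060 bases over the genes that passed the filter, but 6 members had a length above 2000 bases. RPL27A, with a length of 4906 bases, ranked number 78 of the members by FPKM and number 31 by TMM CPM, and RPL13, with 4513 bases, ranked number 75 and number 12. The low FPKM values of RPL27A and RPL13 therefore go with a long length in the table rather than with few counts. RPL22, with 2099 bases, ranked number 77 by FPKM and number 65 by TMM CPM, so it was low among the members by both. The log2 ratios of TMM CPM between libraries do not use the length. FPKM does, so the FPKM of a gene is affected where its length differs between libraries.

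The 6 libraries differed in the share of counts in the 81 members. The share was 3.91% in vector 1 (95% Wilson interval 3.90% to 3.92%) and 4.54% in vector 2 (4.53% to 4.55%). It was 4.07% in DKO 1 (4.06% to 4.08%), 4.32% in DKO 2 (4.31% to 4.34%), 4.31% in MRCKα KO (4.30% to 4.33%) and 4.17% in MRCKβ KO (4.16% to 4.18%). Vector 1 was lowest and vector 2 highest, and all knockout libraries lay between them. These intervals hold counting error alone, because reads without molecular identifiers cannot be told from copies. In bulk RNA, a larger share of these transcripts and a smaller share of all others cannot be told apart.

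Gene by gene, 70 of 80 members were higher in vector 2 than in vector 1, against 49.4% of all genes. The median log2 ratio of vector 2 to vector 1 was 0.27 over the members, or 1.21-fold, and -0.00 over all genes. Both subunits took part, with a median of 0.28 over 32 small-subunit and 0.26 over 48 large-subunit genes. Vector 1 was the lowest of the 6 libraries for 41 members, against 17.4% of all genes, and vector 2 was the highest for 49 members, against 22.8% of all genes. Under library-size, DESeq2 and member-free TMM scaling and in FPKM, between 69 and 70 members were higher in vector 2. A ratio of at least 1.5-fold between the vector libraries was reached by 1 member, RPSA, against 7.97% of the genes with at least 100 counts in every library.

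Within DKO the members differed less. DKO 2 was above DKO 1 for 63 of 80 members, against 49.9% of all genes, with a median log2 ratio of 0.07.

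RPSA, the small-subunit protein also known as the laminin receptor, had 521 and 859.7 FPKM in vector, 648 and 768 in DKO, 687 in MRCKα KO and 554 in MRCKβ KO. RPL14, a large-subunit protein, had 528 and 779 FPKM in vector, 627 and 693 in DKO, 765 in MRCKα KO and 567 in MRCKβ KO. RPL38, a large-subunit protein linked to the translation of Hox messenger RNAs, had 363 and 534 FPKM in vector, 428 and 435 in DKO, 504 in MRCKα KO and 426 in MRCKβ KO. For all 3 genes vector 1 was the lowest and vector 2 the highest library, and the DKO libraries fell between them. The log2 ratio of vector 2 to vector 1 was 0.73 for RPSA, 0.57 for RPL14 and 0.57 for RPL38. The log2 fold change in DKO was 0.01 for RPSA, -0.01 for RPL14 and -0.07 for RPL38, each with an edgeR adjusted p = 1.00.

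The opposite order was found in 10 members. RPS27L, a p53-responsive relative of RPS27, had 41.3 and 31.1 FPKM in vector, 38.4 and 35.4 in DKO, 44.2 in MRCKα KO and 40.9 in MRCKβ KO. Vector 2 was the lowest library for this gene, with a log2 ratio to vector 1 of -0.40.

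Length, start sequence and abundance were set beside the gap between the vector libraries. Genes other than the members that were shorter than 1000 bases had a median log2 ratio of vector 2 to vector 1 of 0.08 (397 genes), and longer ones of -0.01 (8979 genes), all with at least 100 counts in every library. Across the 80 members, the ratio was nearly unrelated to log2 length (Pearson r of -0.05 across genes, which are not independent replicates). Members with C and 4 pyrimidines at the start had a median ratio of 0.28 (46 genes, 45 of them higher in vector 2) and members with another start 0.13 (18 genes, 12 higher). Genes outside the rule at a like abundance, at or above the 10th percentile of the members in vector, had a median of 0.03 (810 genes). The part of length, start sequence or any other property in the gap between the vector libraries was not tested.

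DKO was compared with vector to ask whether loss of both kinases changed the transcripts. With edgeR's quasi-likelihood test and Benjamini-Hochberg adjustment, 0 of 80 ribosomal protein genes had an adjusted p under 0.05, as did 0 of all 13123 genes tested (0%). DESeq2 and limma on log2 FPKM also called 0 members. At an unadjusted p under 0.05 in edgeR there were 2 members, RPS28 among them, against 2.39% of all genes. That count moved with the libraries, to 15 of 80 members without vector 1 (1154 of 13417 genes in all), 5 without vector 2 (805 of 13517), 0 without DKO 1 (337 of 13499) and 0 without DKO 2 (135 of 13453). Of all genes, 313 had an unadjusted p under 0.05, and DESeq2 called 4 and limma 0 after adjustment. The median log2 fold change of the members was -0.03, against -0.00 for all genes, the lowest was -0.20, and 76 of 80 were within 0.2 of 0. Of the members, 30 were higher and 50 lower in DKO, against 49.3% of all genes higher. Genes outside the rule at a like abundance had 286 of 810 higher and a median of -0.05, close to the members. The median standard error of a member's log2 fold change was 0.14, and changes of that size cannot be told from 0 with 2 libraries a group.

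The direction depended on which vector library stood for the control. Without vector 1 the median of the members was -0.14, with 10 of 80 higher in DKO, and without vector 2 it was 0.10, with 61 higher. The share of counts was 4.23% over the vector libraries and 4.20% over the DKO libraries, a difference of -0.03 percentage points against a pooled standard deviation of 0.34. The sign of this difference was not stable, being -0.342 without vector 1, 0.287 without vector 2, 0.0995 without DKO 1, -0.154 without DKO 2 and 0.0598 by share of FPKM. A difference of 1.5-fold between the DKO and vector means was reached by 0 members, against 0.751% of the genes with at least 100 counts in every library.

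Both DKO libraries were above both vector libraries in 4 members, RPL10A, RPL31 and RPS28 among them, against 14.5% of all genes. Both were below in 6 members, RPL9, RPL12, RPL22, RPLP1 and RPS20 among them, against 14.6% of all genes. Both counts are a smaller share of the members than of all genes.

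RPS28 (Entrez gene 6234), a small-subunit protein at the exit of the messenger RNA, had 501 and 457 FPKM in vector, 591 and 629 in DKO, 572 in MRCKα KO and 549 in MRCKβ KO. Every knockout library was above both vector libraries, with a log2 fold change in DKO of 0.33 (SE 0.12, edgeR adjusted p = 1.00), which was 0.39 without vector 1 and 0.27 without vector 2.

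RPL31 (Entrez gene 6160), at the exit of the peptide tunnel, had 731 and 574 FPKM in vector, 758 and 794 in DKO, 728 in MRCKα KO and 765 in MRCKβ KO. The DKO libraries were above both vector libraries, but vector 1 lay much closer to them than vector 2, and the log2 fold change of 0.23 (SE 0.15, edgeR adjusted p = 1.00) was 0.43 without vector 1 and 0.05 without vector 2. RPS15 (Entrez gene 6209), a protein of the small-subunit head, had 319 and 421 FPKM in vector, 378 and 467 in DKO, 365 in MRCKα KO and 380.0 in MRCKβ KO. The groups overlapped, with DKO 1 between the vector libraries, and the log2 fold change of 0.17 (SE 0.18, edgeR adjusted p = 1.00) became -0.02 without vector 1.

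RPL11 (Entrez gene 6135), which joins RPL5 and the small ribosomal RNA of the large subunit in a particle that can bind MDM2, had 737 and 966 FPKM in vector, 708 and 796 in DKO, 845 in MRCKα KO and 720.5 in MRCKβ KO. Vector 2 was high and the other libraries were spread below it, with the groups overlapping. The log2 fold change of -0.20 (SE 0.16, edgeR adjusted p = 1.00) was the lowest of the members and became 0.01 without vector 2. RPL7A (Entrez gene 6130), a large-subunit protein, had 1047 and 1267 FPKM in vector, 983 and 1081 in DKO, 1152 in MRCKα KO and 1083 in MRCKβ KO. Vector 2 was again the highest library and DKO 2 lay above vector 1. The log2 fold change of -0.19 (SE 0.14, edgeR adjusted p = 1.00) was -0.32 without vector 1 and -0.04 without vector 2.

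RPL9 (Entrez gene 6133), a large-subunit protein near the stalk, had 648 and 749 FPKM in vector, 603 and 639.5 in DKO, 647 in MRCKα KO and 559 in MRCKβ KO. All 4 knockout libraries were below both vector libraries, MRCKα KO just below vector 1, and the log2 fold change in DKO of -0.19 (SE 0.13, edgeR adjusted p = 1.00) was -0.29 without vector 1 and -0.07 without vector 2. RPL23A (Entrez gene 6147), which lies beside the peptide tunnel exit and contacts the signal recognition particle, had 557 and 712 FPKM in vector, 542 and 594 in DKO, 648 in MRCKα KO and 600.1 in MRCKβ KO. DKO 2 lay between the vector libraries, and the log2 fold change of -0.18 (SE 0.15, edgeR adjusted p = 1.00) became 0.01 without vector 2.

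**Figure D2:**
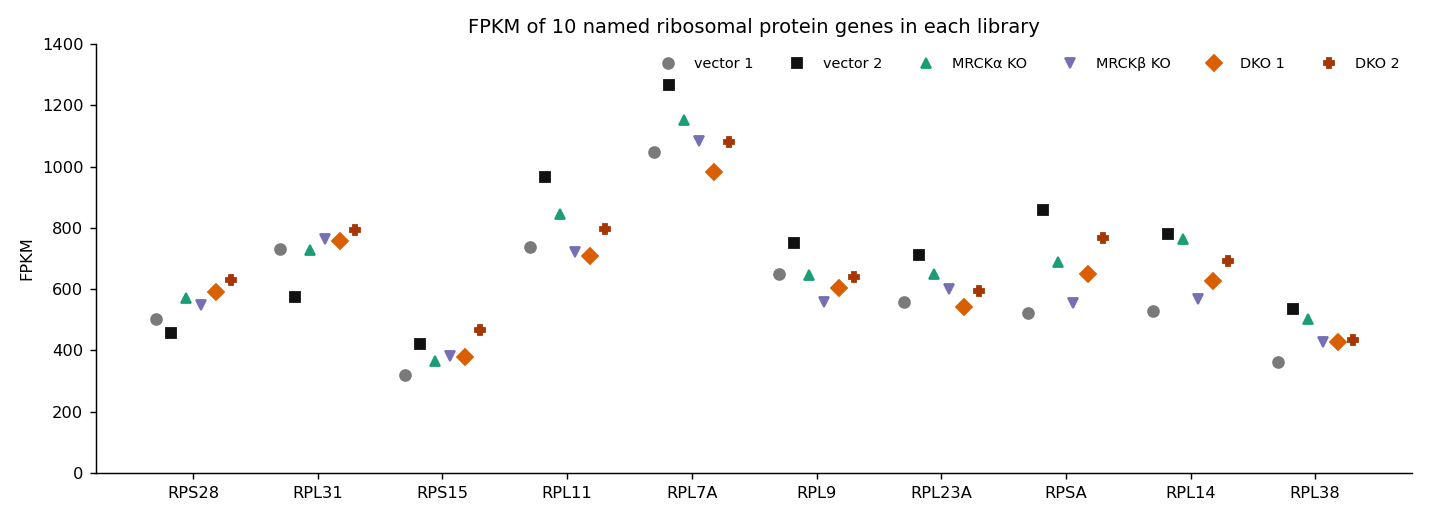
FPKM, on an axis from 0, of 10 named ribosomal protein genes in the 6 libraries, with a symbol for each library. In RPS28 all 4 knockout libraries lie above both vector libraries, and in RPSA, RPL14 and RPL38 the vector libraries are the lowest and the highest.

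The MRCKα KO library was compared with the vector libraries in the same way. The median log2 ratio of the members to the vector mean was 0.02, against 0.01 for all genes, and 46 of 80 members were higher, against 51.9% of all genes. Against vector 1 alone the median was 0.14, and against vector 2 alone -0.08. The library was above both vector libraries in 18 members, against 30.3% of all genes, and below both in 13 members, against 29.1%, so that 49 members lay between the vector libraries. A 1.5-fold difference from the vector mean was reached by 0 members, against 1.83% of the genes with at least 100 counts in every library.

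The highest ratio in MRCKα KO was that of RPL30, a large-subunit protein, with 794 FPKM there, 659 and 619.9 in vector, 702 in MRCKβ KO and 692 and 489 in DKO. MRCKα KO was the highest and DKO 2 the lowest library, and the log2 ratio of MRCKα KO to vector was 0.30. The next ratio was 0.28 for RPS27L, which was 0.08 against vector 1 alone and 0.49 against vector 2 alone. The lowest ratio was that of RPL10, a late-assembling large-subunit protein, with 271 FPKM there, 304 and 342 in vector, 292 in MRCKβ KO and 280.0 and 316 in DKO. MRCKα KO was the lowest library and the ratio was -0.27, followed by -0.18 for RPLP2 and -0.16 for RPS27A. Against vector 1 alone RPLP2 and RPS27A were each at -0.04, and against vector 2 alone at -0.32 and -0.28.

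The MRCKβ KO library gave a median log2 ratio of the members of -0.02, against 0.01 for all genes, with 36 of 80 members higher, against 51.2% of all genes. Against vector 1 alone the median was 0.10, and against vector 2 alone -0.14. MRCKβ KO was above both vector libraries in 18 members, against 30.1% of all genes, and below both in 12 members, against 29.1%, and 50 members lay between the vector libraries. A 1.5-fold difference was reached by 0 members, against 1.59% of the genes with at least 100 counts in every library. All 3 knockouts were set against the same vector libraries, so their values are not independent.

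The highest ratio in MRCKβ KO was that of RPL36AL, with 631 FPKM there, 519.9 and 445 in vector, 579 in MRCKα KO and 524 and 445 in DKO. MRCKβ KO was the highest library, with a log2 ratio to vector of 0.39. The lowest ratios in MRCKβ KO were -0.32 for RPL9, -0.28 for RPSA and -0.27 for RPL24. Against vector 1 alone they were -0.21, 0.09 and -0.03, and against vector 2 alone -0.43, -0.64 and -0.51. The direction of RPSA thus depended on the vector library used. RPL24, of the large subunit, had 677 and 940.0 FPKM in vector, 724 and 797 in DKO, 808 in MRCKα KO and 664 in MRCKβ KO, with MRCKβ KO the lowest library and vector 2 the highest.

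Of the members with special roles, 0 had an adjusted p under 0.05 in DKO. The stalk proteins RPLP1 and RPLP2 bind RPLP0 as dimers. RPLP1 had 1019 and 1073 FPKM in vector, 971 and 1017 in DKO, 1097 in MRCKα KO and 1159.8 in MRCKβ KO. RPLP2 had 756 and 913 FPKM in vector, 742 and 897 in DKO, 740.4 in MRCKα KO and 782 in MRCKβ KO. RPLP1 was highest in the single knockouts and lowest in DKO, the DKO libraries being below both vector libraries, while in RPLP2 the groups overlapped.

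RPL5, the partner of RPL11, had 665 and 835 FPKM in vector, 744 and 743 in DKO, 819 in MRCKα KO and 784 in MRCKβ KO. RPS6, the substrate of the S6 kinases, had 1011 and 1103 FPKM in vector, 958 and 1104 in DKO, 1069.9 in MRCKα KO and 979 in MRCKβ KO. In RPL5 vector 1 was lowest and vector 2 highest, and in RPS6 DKO 1 was lowest while DKO 2 and vector 2 were close together at the top.

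RPS27A, which is made as a fusion with ubiquitin, had 416 and 489 FPKM in vector, 403 and 454 in DKO, 409 in MRCKα KO and 392 in MRCKβ KO. RPL41, the member with the shortest protein, had 1138 and 1324 FPKM in vector, 1259 and 1356 in DKO, 1366 in MRCKα KO and 1340.4 in MRCKβ KO. RPS19, the gene most often mutated in Diamond-Blackfan anaemia, had 696 and 862 FPKM in vector, 786 and 834 in DKO, 704 in MRCKα KO and 715 in MRCKβ KO. RPS27A was below both vector libraries in the single knockouts, RPL41 above both, and RPS19 between them.

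Paralogues within the members differed in level. RPL39L, a relative of RPL39 known from testis, had 26.5 and 37.9 FPKM in vector, 29.4 and 32.6 in DKO, 31.7 in MRCKα KO and 28.3 in MRCKβ KO. RPL39 itself had 486 and 607 FPKM in vector, 604 and 559 in DKO, 613 in MRCKα KO and 586 in MRCKβ KO. Vector 1 was the lowest library for both genes. RPL36A, the relative of RPL36AL, had 585 and 716 FPKM in vector, 606 and 631 in DKO, 711 in MRCKα KO and 597 in MRCKβ KO, so that its vector libraries had the opposite order to those of RPL36AL, and it was above RPL36AL in every library but MRCKβ KO. RPL36A and RPL36AL encode nearly identical proteins, and many members have processed pseudogenes elsewhere in the genome, so the counts of such genes are uncertain where short reads fit more than 1 copy or an overlapping gene.

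Readthrough genes share sequence with a member as well. RPS10-NUDT3, which shares exons with RPS10, was assigned 70.2 and 30.2 counts in vector, 72.9 in MRCKα KO and 98.3 in MRCKβ KO. It was assigned 0 counts in both DKO libraries. An expected count is an estimate, and reads are divided between genes that share exons. A 0 therefore does not show that the transcript was absent. Of the 3 readthrough genes tested, 0 had an edgeR adjusted p under 0.05 in DKO. At an unadjusted p under 0.05 in edgeR there was 1, against 2.39% of all genes. RPS10 had 4610 and 4813 counts in vector, 4616 and 5506 in DKO, 4848 in MRCKα KO and 5283 in MRCKβ KO. The readthrough gene held few counts beside RPS10, and RPS10 itself overlapped between DKO and vector.

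Some ribosomal proteins and relatives of members fell outside the rule. FAU, fused to a ubiquitin-like protein, had 239 and 282 FPKM in vector, 261 and 285 in DKO, 265 in MRCKα KO and 279 in MRCKβ KO. FAU was lowest in vector 1. RACK1, RPL7L1, RPL22L1 and RPL26L1 had log2 fold changes in DKO between -0.08 and 0.12, with 0 of these genes called.

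Mitochondrial ribosomal protein genes, which serve the ribosome of the mitochondrion, were set beside the members. All 77 were tested and 0 were called in DKO, with a median log2 fold change of -0.01. In DKO 38 were higher and 39 lower, against 49.3% of all genes higher. Their median ratio of vector 2 to vector 1 was 0.11, against 0.27 in the cytosolic members. Of the 77, 52 were higher in vector 2, against 49.4% of all genes. The median ratio was 0.03 in MRCKα KO and -0.04 in MRCKβ KO. Against vector 1 alone these medians were 0.10 and 0.007, and against vector 2 alone 0.002 and -0.10, so the sign in MRCKβ KO turned.

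Of 28 listed genes of the translation machinery and others with a TOP messenger RNA, 25 were in the table. Of these 25, 0 were called in DKO, with 6 higher, 19 lower and a median log2 fold change of -0.09. Of all genes 49.3% were higher in DKO, and of genes outside the rule at an abundance like that of the members 286 of 810. EEF1A1, which brings aminoacyl-tRNA to the ribosome, had 3499 and 3503 FPKM in vector, 3377 and 3412 in DKO, 3399 in MRCKα KO and 3764 in MRCKβ KO, all within a narrow range. The median ratio of vector 2 to vector 1 over this list was 0.18. In vector 2, 19 of 25 genes were higher, against 49.4% of all genes.

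Among 50 ribosome assembly factors 0 were called in DKO, with a median of 0.05. In DKO 32 were higher and 18 lower, against 49.3% of all genes higher. In MRCKα KO 33 of the 50 were above the vector mean, against 51.9% of all genes, with a median ratio of 0.08. That median was 0.21 against vector 1 alone and -0.02 against vector 2 alone. In MRCKβ KO 10 were above the vector mean, against 51.2% of all genes, with a median of -0.11. It was -0.004 against vector 1 alone and -0.20 against vector 2 alone, so both medians depended on the vector library used. MYC, a transcription factor, was counted among the 50 and had the highest log2 fold change of them in DKO. Its levels were 83.7 and 61.2 FPKM in vector, 109.6 and 93.7 in DKO, 96.1 in MRCKα KO and 109 in MRCKβ KO. It was above both vector libraries in every knockout library, but its log2 fold change in DKO of 0.47 (SE 0.18, edgeR adjusted p = 1.00) did not pass the test. Over the assembly factors the median ratio of vector 2 to vector 1 was 0.22. In vector 2, 43 of 50 were higher, against 49.4% of all genes, so that this list and the members had their vector libraries in the same order. Of 10 regulators and stress genes, including MDM2, CDKN1A, MTOR and LARP1, 0 were called. In DKO 9 were higher and 1 lower, against 49.3% of all genes higher, with a median log2 fold change of 0.08. The median ratio of vector 2 to vector 1 was -0.05.

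The line was checked against its markers. VIM, a mesenchymal filament protein, was between 1532 and 2052 FPKM and EGFR between 51.0 and 59.2 FPKM, while ESR1 and PGR, hormone receptors that define other breast cancers, were at or below 0.87 FPKM in every library. ERBB2, the receptor that with these defines the triple-negative class, was not absent, at 13.2 to 16.2 FPKM. Of the epithelial markers listed as low, CDH1 was at or below 0.64 FPKM and EPCAM between 0.73 and 2.62 FPKM. VIM is itself on the TOP list and was highest in vector 2. Over the 6 markers listed as high, the log2 ratio of vector 2 to vector 1 ranged from -0.24 to 0.82. Its median was 0.24, with 4 markers higher in vector 2, against 49.4% of all genes. All 6 were lower in DKO, with a median log2 fold change of -0.20 and 0 called. In DKO 6658 of all 13123 genes tested were lower, as were 524 of 810 genes at an abundance like that of the members. Of 8 markers of fibroblasts and blood cells, 7 were in the table, and their summed level was 19.1 and 13.0 FPKM in vector, 12 and 11.7 in DKO, 12.04 in MRCKα KO and 14.2 in MRCKβ KO. LYZ was the most abundant of them in every library, at 7.58 FPKM in vector 1 and 8.87 in vector 2, and CD3E was at 0 in 5 libraries. PDGFRB had 5.90 FPKM in vector 1 and 1.35 in vector 2. The summed level was highest in vector 1, the library with the lowest share of ribosomal protein counts. Whether any fibroblasts or blood cells were present, and whether these levels bear on that share, was not tested. No gene matched the symbols of mitochondrially encoded genes, so that sign of RNA quality was not analysed here.

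Some limits hold for all values given here. DKO against vector rests on 2 libraries a group, and each single knockout on 1 library. The p-values measure only the spread between these samples, from separate transductions in vector and different guide sets in DKO. Whether the libraries of a group otherwise came from separate experiments cannot be read from the counts. The source of the gap between the vector libraries was not tested. RNA levels do not give protein, translation or ribosome number. Bulk RNA cannot tell a change in cell makeup from a change in RNA per cell.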

How the data were processed

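RNA of 6 libraries was analysed, grouped by genotype. The authors had single-end reads quantified by BGI, and the submitters' processing notes name HISAT, Bowtie2, RSEM and GRCh38.p11 without versions. The deposited expected count of a gene is an estimate of its reads and is not normalized. The deposited FPKM divides reads by transcript length and library total. Each expected count was rounded, low genes were removed with filterByExpr and libraries were scaled by TMM. DKO and vector were compared with the quasi-likelihood test of edgeR 4.0.16 in R 4.3.3, with Benjamini-Hochberg adjustment over all genes and a threshold of 0.05. SE is the absolute log2 fold change over the square root of F. The test was first run on simulated counts, with changes larger than that of any member in DKO. That run does not show whether changes as small as those of the members would be called. Other values came from Python 3.11.15 with numpy 2.4.6, pandas 2.3.3, scipy 1.17.1 and matplotlib 3.10.9.

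Named members were the 8 highest in vector, any under 10 counts, the extremes of DKO, of the vector gap and of each single knockout among members with at least 100 counts in every library, members with special roles, and paralogues. Not every gene of this rule is named. RPL10A, RPL12, RPL13, RPL22, RPL27A, RPS10, RPS20, EEF1A1, MYC and PDGFRB were named after their values were seen. Members and lists were chosen with earlier results of these data known.

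The alternatives were DESeq2 1.42.0, upper-quartile, library-size and member-free TMM scaling, a minimum of 10 counts everywhere, no filter, a replicate block, a fit of 6 libraries together, limma 3.58.1 on log2 FPKM (pseudocount 0.1 or 1, mean FPKM from 0.5), readthrough counts added to the parent, and each library left out.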

Additional observations from a re-analysis of the deposited data

How the results depend on the processing

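No ribosomal protein gene was called under any of the 15 alternatives. Over all genes, 0 were called, with 4 under DESeq2, and with 1 without vector 1, 0 without vector 2, 5 without DKO 1 and 0 without DKO 2.

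The median log2 fold change of the members, -0.03, was -0.14 without vector 1, 0.10 without vector 2, -0.01 without DKO 1 and -0.07 without DKO 2. Of 120 values of the 8 members at the extremes of DKO, 3 changed sign. RPS15 was -0.0185 without vector 1 and 0.39 without vector 2. RPL11 was -0.39 and 0.0093, and RPL23A was -0.35 and 0.0109.

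The replicate block called 5 of all genes and 0 members. The labels of vector and DKO share the numbers 1 and 2. The log2 difference of vector 1 and vector 2 correlated with that of DKO 1 and DKO 2 with r = 0.445 over 9997 genes and 0.376 over 80 members, and with only 2 pairs the numbers were not taken to pair samples.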
